A study of Mus musculus with 6 samples.

Results

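Transcripts of 45 coagulation and complement genes were followed in liver from mice of the Townes sickle cell line, 24 of the blood clotting and fibrinolysis system and 21 of the complement system. The members are defined by gene symbol, and all 45 were found among the gene symbols of the count tables. Serping1, whose product inhibits proteases of both systems, was counted with complement. SS mice carried the alleles Hbatm1(HBA)Tow and Hbbtm2(HBG1,HBB*)Tow, and AS mice carried these together with Hbbtm3(HBG1,HBB)Tow. Human alpha-globin, gamma-globin and beta-globin genes thus stood in place of the mouse genes in both groups, and the groups differed in having only the sickle form of beta-globin (SS) or a sickle and a normal form (AS). Each group had 3 liver samples taken at 7 months of age, and total RNA was sequenced. The labels give no sex, litter or batch and leave unsaid whether each replicate is its own animal, so a p-value here speaks only of the spread among these samples, which may be technical.

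Most clotting factors and complement proteins of plasma are made by hepatocytes. Clotting runs as a cascade of serine proteases that ends with thrombin cutting fibrinogen to fibrin, held in check by antithrombin, heparin cofactor II and the protein C system, while plasmin dissolves the clot. Complement is started by C1q (classical pathway), by mannose-binding lectins (lectin pathway) or by factors B and D (alternative pathway). The routes meet at C3 and end in the membrane attack complex of C5b, C6, C7, C8 and C9. Not all members are hepatocyte genes: liver macrophages make C1q, sinusoidal endothelium makes factor VIII, and fat cells are the main source of factor D.

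Gene counts per library ran from 6670011 to 13700194. Levels are given as CPM, counts scaled to a common total of gene reads with trimmed-mean (TMM) factors. SS was compared with AS in edgeR (quasi-likelihood), and p-values were adjusted by Benjamini and Hochberg's method over the 12622 genes with enough counts to test. Of the members 44 passed that filter, all but Cfd. The 4 adult mouse globin genes, replaced in this line, were without a read in all 6 libraries, which cannot tell SS from AS. Hepatocyte markers were abundant everywhere, with Alb at 49637, 76278 and 53142 CPM in SS livers and 85539.6, 63496 and 61238 CPM in AS livers.

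Some libraries stood apart. AS replicate 1 had the highest value of 25 of the 44 tested members and SS replicate 3 the lowest of 23, while SS replicate 3 also had the highest of 10. SS replicate 3 differed from the other 5 libraries by transcript length: among genes averaging at least 100 CPM its median log2 ratio to them was -0.90 for 656 genes with a principal transcript under 2 kb, -0.20 for 558 genes of 2 to 4 kb and 0.19 for 223 genes over 4 kb. The same medians in AS replicate 1 were 0.49, 0.19 and 0.053. Members followed the same order in SS replicate 3, with -0.72 for the 16 members under 2 kb, -0.0034 for 21 of 2 to 4 kb and 0.23 for 7 over 4 kb. Among genes averaging at least 100 CPM, the median log2 fold change of SS over AS was -0.43, -0.31 and -0.12 from the shortest class to the longest. Without SS replicate 3 these medians were -0.27, -0.32 and -0.24. The part of transcript length in the differences between the genotypes was not tested, and values without SS replicate 3 are given for several members that it moved. AS replicates 2 and 3 were the most alike of all pairs. Their chi-square per gene was 3.98, and that of any other pair lay between 27.9 and 170.3. They still differed by more than sampling noise and were kept as 2 samples. A fit without AS replicate 1 has only this pair as AS libraries. It may understate the spread among AS livers, and its calls carry that limit.

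**Figure D1:**
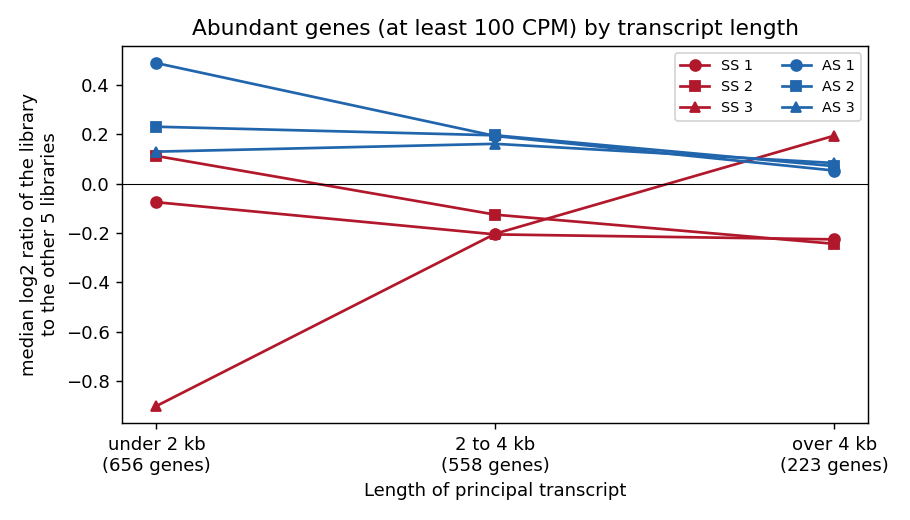
Median log2 ratio of each library to the other 5 (vertical axis) in 3 classes of principal transcript length (horizontal axis), for genes averaging at least 100 CPM, with SS libraries in red, AS libraries in blue and a marker shape for each replicate. SS replicate 3 runs from -0.90 for transcripts under 2 kb to 0.19 for those over 4 kb, while each of the other 5 is lower for transcripts over 4 kb than for those under 2 kb.

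The lowest p of any member belonged to the last step of complement. C6, the second component of the membrane attack complex, rose 3.14-fold in SS livers and was the 1 member called (adjusted p under 0.05) of 44 tested, where 0.967% of all genes tested were called, 0.911% higher and 0.0555% lower. C8a and C9 were also higher in every SS library than in any AS library, without passing the test, and C8g was lower in every SS library. None of the 24 coagulation genes was called by edgeR, DESeq2 or limma-voom. At an unadjusted p under 0.05, 4 coagulation genes were lower and none was higher, whereas 3 complement genes were higher and 2 were lower; over all genes tested these shares were 12.7% in either direction, 9.12% higher and 3.58% lower, and over genes averaging at least 100 CPM they were 2.3% higher and 15.4% lower.

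The median log2 fold change was -0.45 for the 24 coagulation genes and -0.012 for the 20 complement genes tested, against 0.082 for all genes tested. Abundant liver genes had low values as a whole: the 1477 genes averaging at least 100 CPM had a median of -0.35. Of the coagulation genes, 20 had fitted values below 0, as did 81.5% of the abundant genes and 43.7% of all genes. In 12 coagulation genes every SS library lay below every AS library, and 1 had SS above AS. In complement 4 genes had SS below AS and 4 had SS above AS. That pattern of SS below AS was found in 31.3% of the abundant genes and 9.04% of all genes tested, and SS above AS in 2.23% and 12.1%. All 12 lay among the 20 coagulation genes of at least 100 CPM. Scaling by library totals alone moved the coagulation median to -0.18, that of the abundant genes to -0.075 and that of all genes to 0.36, so the distance between coagulation and all genes was about the same under both. Leaving out AS replicate 1 together with SS replicate 3, the coagulation median was -0.20, beside -0.22 for the abundant genes.

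**Figure D2:**
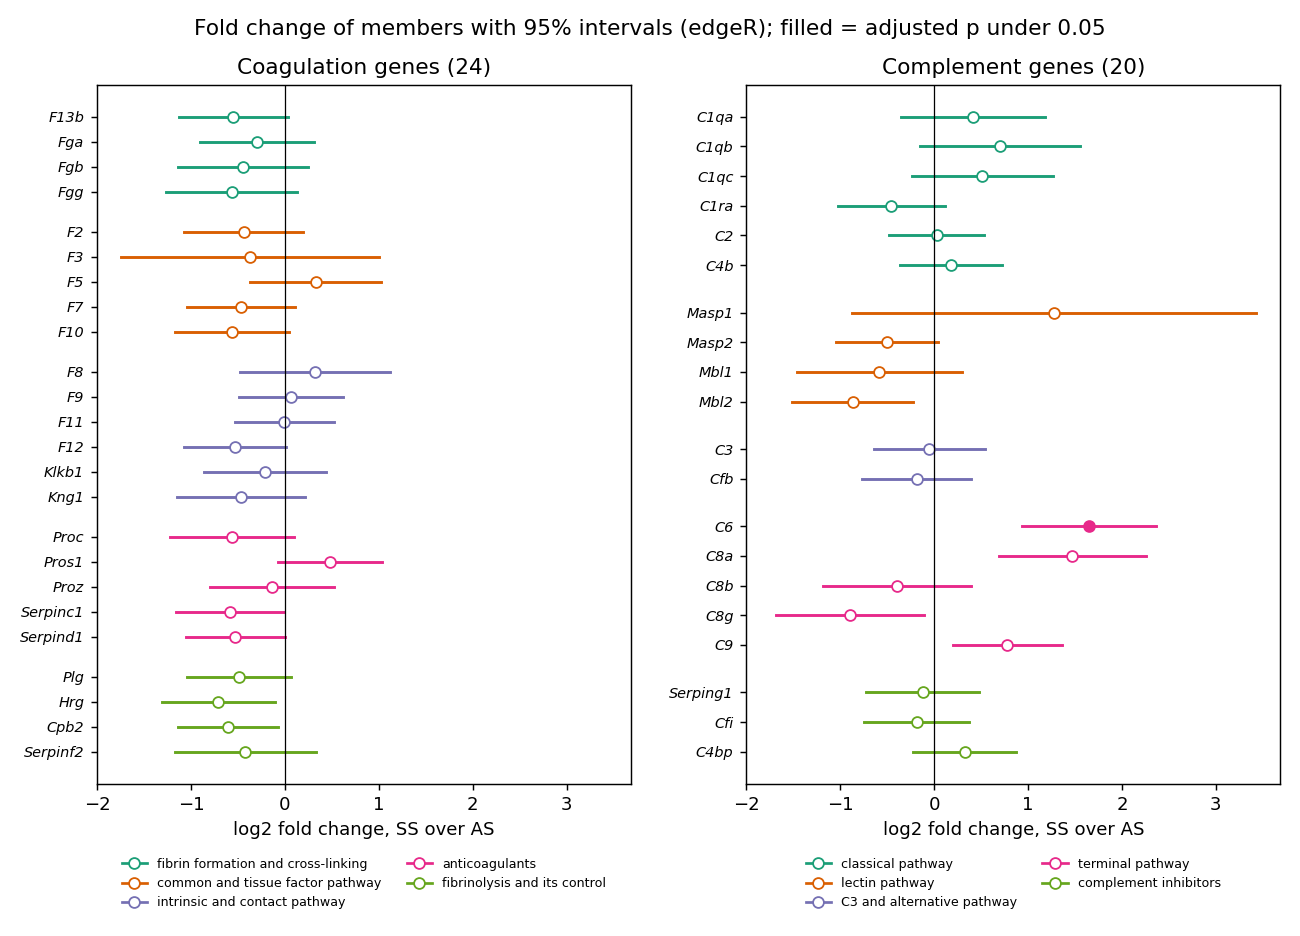
Log2 fold change of SS over AS (horizontal axis) with its 95% interval for the 24 coagulation genes (left) and 20 tested complement genes (right), coloured by role, from edgeR over all genes with 3 libraries a group. The filled point is C6 at 1.65, coagulation genes lie between -0.71 and 0.48, and the terminal complement genes spread from -0.90 to 1.65.

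Fibrinogen is a hexamer of alpha, beta and gamma chains, encoded by Fga (chromosome 3, 83026076 to 83033627), Fgb (chromosome 3, 83040141 to 83049863) and Fgg (chromosome 3, 83007724 to 83015049, mm10), which lie side by side with Fgb read in the opposite direction. The chains are classical targets of interleukin 6 in hepatocytes. Their promoters are shown because the genes share a locus. Fgb and Fgg also followed each other from library to library, while Fga departed from them in SS replicate 3. Each line gives the 250 bases before the transcription start in RefSeq (GRCm38.p6), 5′ to 3′ on the gene's strand, and capitals mark matches to letters typical of liver and acute phase promoters, namely GTTAAT (a half-site of HNF1, a hepatocyte transcription factor), TTCNNNGAA (the STAT palindrome), CTGGGAA (the interleukin 6 response core) and TTNNGNAAT (C/EBP-type), searched on both strands.
Fga, chr3:83025903-83026152, plus strand: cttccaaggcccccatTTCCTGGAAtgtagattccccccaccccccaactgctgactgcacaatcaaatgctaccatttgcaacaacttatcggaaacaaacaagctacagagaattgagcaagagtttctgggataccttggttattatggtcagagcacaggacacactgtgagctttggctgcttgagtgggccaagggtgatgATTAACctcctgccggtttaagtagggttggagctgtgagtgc
Fgb, chr3:83049864-83050113, minus strand: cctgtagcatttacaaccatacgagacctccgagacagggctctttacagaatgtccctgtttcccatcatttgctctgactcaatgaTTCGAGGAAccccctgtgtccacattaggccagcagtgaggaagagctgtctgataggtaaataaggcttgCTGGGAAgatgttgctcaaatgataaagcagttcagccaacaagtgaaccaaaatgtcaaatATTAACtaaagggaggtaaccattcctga
Fgg, chr3:83007474-83007723, plus strand: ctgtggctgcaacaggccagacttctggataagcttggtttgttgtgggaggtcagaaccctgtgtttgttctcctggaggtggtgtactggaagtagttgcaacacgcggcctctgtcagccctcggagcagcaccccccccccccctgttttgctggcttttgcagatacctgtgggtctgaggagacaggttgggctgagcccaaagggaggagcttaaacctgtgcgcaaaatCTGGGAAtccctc
Fga and Fgb each held the HNF1 half-site and the STAT palindrome, and Fgb and Fgg the interleukin 6 core, while no C/EBP-type match lay in these 3 windows. Over all 32851 promoter windows of the same length, 6.43% held the HNF1 half-site, 7.02% the STAT palindrome, 9.1% the interleukin 6 core and 10.2% the C/EBP-type letters. A match describes the letters and is no evidence of binding.

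Fibrinogen transcripts were among the most abundant members, and none of the chains passed the test. Fgb had 3144, 3831 and 2309 CPM in SS livers, against 5610.2, 3622 and 3408 CPM in AS livers (log2 fold change -0.45, SE 0.313, adjusted p = 0.572 in edgeR). The groups overlapped, since SS replicate 2 lay above AS replicates 2 and 3, and AS replicate 1 stood alone at the top. Fga and Fgg gave log2 fold changes of -0.30 and -0.57, also with overlapping groups. Per length, the ratio of Fgb to Fgg was 0.680, 0.691 and 0.731 in SS livers and 0.650, 0.649 and 0.616 in AS livers. The proportion of these chains thus varied little, though every SS value lay above every AS value. That difference was not tested. Fga over Fgg was 0.672, 0.739 and 1.08 in SS livers and 0.619, 0.707 and 0.683 in AS livers, and only SS replicate 3 departed from the rest. F13b, the carrier subunit of the fibrin cross-linking enzyme factor XIII, had 142, 115 and 169.8 CPM in SS livers, against 253, 181 and 191 CPM in AS livers (log2 fold change -0.55, SE 0.264, adjusted p = 0.424 in edgeR), with every SS library below every AS library.

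None of the 5 genes of the common and tissue factor pathway passed the test, and 3 of them had every SS library below AS. F2, which encodes prothrombin, had 2200.0, 2310.2 and 1648 CPM in SS livers, against 3524, 2463 and 2360.1 CPM in AS livers (log2 fold change -0.44, SE 0.286, adjusted p = 0.540 in edgeR), so the groups did not overlap but AS replicate 1 set much of the gap. F10, the enzyme that cuts prothrombin, had 384, 400.0 and 269 CPM in SS livers, against 619.7, 495 and 443 CPM in AS livers (log2 fold change -0.56, SE 0.274, adjusted p = 0.425 in edgeR). F7, the partner of tissue factor, also kept its SS libraries below AS (log2 fold change -0.47). F5, the cofactor of factor Xa and a very long transcript, did not follow them and had 297, 292 and 572 CPM in SS livers, against 349, 283 and 294 CPM in AS livers. SS replicate 3 alone was high, and the log2 fold change of F5 was 0.33 with it and -0.079 without it. The part of transcript length in the F5 value was not tested. F3, the gene of tissue factor, which starts clotting, had 2.90, 1.02 and 1.80 CPM in SS livers, against 1.5, 3.22 and 2.62 CPM in AS livers, on 13 to 32 reads a library, and its groups overlapped.

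Among genes of the intrinsic and contact pathway, F12 had the lowest p. This gene encodes factor XII, the surface-activated protease, and had 454, 449 and 392 CPM in SS livers, against 686, 611 and 577 CPM in AS livers (log2 fold change -0.53, SE 0.244, adjusted p = 0.400 in edgeR). The groups were apart by more than the spread within either of them. Kng1, the kininogen precursor of bradykinin, also had SS below AS (log2 fold change -0.46, SE 0.308), although reads can be shared with its near copy Kng2. Its groups nearly touched, with SS replicate 1 at 3008 CPM and AS replicate 3 at 3070 CPM, and SS replicate 3 was lowest at 1598 CPM. F8, F9, F11 and Klkb1, which encode factors VIII, IX and XI and prekallikrein, had overlapping groups and log2 fold changes of 0.32, 0.064, -0.0051 and -0.21. F8 and F9 were highest in SS replicate 3, and without it their values were -0.064 and -0.15. The 11 sinusoidal endothelial markers, which include the source cells of factor VIII, summed to 400.2, 406 and 660.1 CPM in SS livers and 392, 556 and 529 CPM in AS livers, also highest in SS replicate 3. Their part in the value of F8 was not tested.

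The inhibitors of clotting included 2 genes with an unadjusted p under 0.05. Serpinc1, which encodes antithrombin, the main inhibitor of thrombin and factor Xa, had 2201, 2059.6 and 1658 CPM in SS livers, against 3181, 2930.3 and 2754 CPM in AS livers (log2 fold change -0.58, SE 0.259, adjusted p = 0.389 in edgeR, 95% interval -1.16 to -0.0099). Serpind1, the gene of heparin cofactor II, had 388, 418 and 380.2 CPM in SS livers, against 596, 585 and 531 CPM in AS livers (log2 fold change -0.53, SE 0.239, adjusted p = 0.393 in edgeR). In both genes the lowest AS library lay well above the highest SS library. Proc, the protein C gene, had SS below AS too (log2 fold change -0.57, SE 0.297), with SS replicate 3 lowest by far at 336 CPM. Pros1, which encodes the cofactor of protein C, was the 1 coagulation gene with every SS library above AS, at 89.5, 86.0 and 122 CPM in SS livers, against 58.9, 75.9 and 78.8 CPM in AS livers (log2 fold change 0.48, SE 0.249, adjusted p = 0.453 in edgeR). Proz, whose product binds factor Xa with a serpin partner, gave -0.14 with overlapping groups.

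All 4 genes of fibrinolysis and its control had fitted values below 0, as did 81.5% of the genes averaging at least 100 CPM, to which they belong. Hrg, a histidine-rich glycoprotein that binds plasminogen, fibrinogen and heparin, had 870.4, 917 and 584 CPM in SS livers, against 1259, 1380.3 and 1236 CPM in AS livers (log2 fold change -0.71, SE 0.273, adjusted p = 0.320 in edgeR, 95% interval -1.31 to -0.10). Its highest SS library lay below its lowest AS library, with SS replicate 3 the lowest of all. Hrg was called lower in the fit of the other 4 libraries, without AS replicate 1 and SS replicate 3 (log2 fold change -0.55, edgeR adjusted p = 0.0463), the 1 coagulation call in the fits run, where 5.21% of genes were called and 2.49% were called lower. The AS libraries of that fit were the closely alike replicates 2 and 3, so its p-values may be too small. Cpb2, the gene of the carboxypeptidase that slows clot lysis, had 265, 289 and 246 CPM in SS livers, against 453, 389 and 376 CPM in AS livers (log2 fold change -0.61, SE 0.242, adjusted p = 0.338 in edgeR). Plg, the plasminogen gene, also kept its groups apart (log2 fold change -0.49, SE 0.252), while Serpinf2, which encodes the plasmin inhibitor, had overlapping groups (-0.43). Summed over the 24 coagulation genes, transcripts made up 21609.8, 23497 and 16884 CPM in SS livers and 33789, 26449 and 25035 CPM in AS livers.

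**Figure D3:**
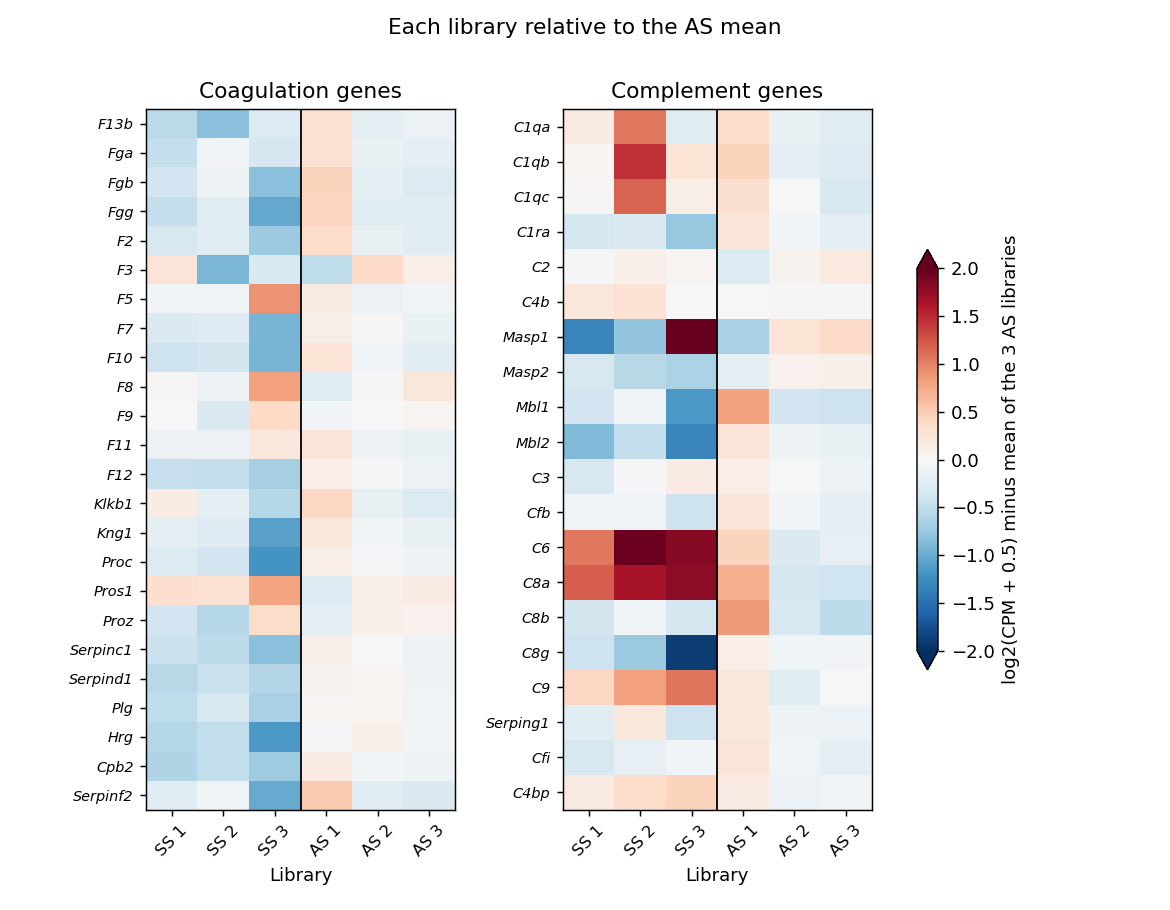
Each library's log2(CPM + 0.5) minus the mean of the 3 AS libraries (colour, with red above and blue below that mean, cut at 2 in either direction), for coagulation genes (left) and complement genes (right), SS libraries left of AS libraries. Coagulation rows are mostly blue across SS, most deeply in SS replicate 3, whereas C6, C8a and C9 are red in all 3 SS libraries, the C1q genes in SS replicate 2 and Masp1 in SS replicate 3.

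The terminal complement genes differed in direction. C6 (chromosome 15, 4727175 to 4814967) and C9 (chromosome 15, 6445327 to 6498751) are single-chain components, and C8 is built from an alpha chain (C8a, chromosome 4, 104815679 to 104876398), a beta chain (C8b, chromosome 4, 104766317 to 104804548) and a small lipocalin-like gamma chain (C8g, chromosome 2, 25498651 to 25501719). The promoters of C6, C9 and C8a, the genes with every SS library above AS, are printed as above.
C6, chr15:4726960-4727209, plus strand: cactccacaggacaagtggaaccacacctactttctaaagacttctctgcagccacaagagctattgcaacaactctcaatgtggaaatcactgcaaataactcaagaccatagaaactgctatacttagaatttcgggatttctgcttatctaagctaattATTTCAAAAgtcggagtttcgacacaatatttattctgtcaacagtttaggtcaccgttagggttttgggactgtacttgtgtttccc
C9, chr15:6445096-6445345, plus strand: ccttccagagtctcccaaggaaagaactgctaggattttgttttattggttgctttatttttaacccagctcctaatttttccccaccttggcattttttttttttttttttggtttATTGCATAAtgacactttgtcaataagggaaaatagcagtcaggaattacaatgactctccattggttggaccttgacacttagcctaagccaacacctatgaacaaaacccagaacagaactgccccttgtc
C8a, chr4:104876399-104876648, minus strand: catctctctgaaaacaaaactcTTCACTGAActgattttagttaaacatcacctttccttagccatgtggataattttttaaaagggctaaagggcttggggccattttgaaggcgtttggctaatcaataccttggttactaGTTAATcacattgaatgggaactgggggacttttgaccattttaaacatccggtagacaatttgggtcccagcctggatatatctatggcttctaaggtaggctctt
C6 and C9 each held the C/EBP-type letters and none of the other motifs, and C8a held the HNF1 half-site and the STAT palindrome, so no motif searched was common to the 3 windows. Of the 45 members 35 had a promoter entry, in 36 windows, of which 7 held the C/EBP-type letters, 8 the HNF1 half-site and 6 the STAT palindrome.

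C6 had 39.6, 75.1 and 67.6 CPM in SS livers, against 25.9, 15.3 and 16.8 CPM in AS livers. Its lowest SS library exceeded its highest AS library, which was again AS replicate 1. The log2 fold change was 1.65 (SE 0.322, 95% interval 0.94 to 2.36, edgeR adjusted p = 0.0462; DESeq2 adjusted p = 0.000749). The call sat close to the threshold and ended when any library other than SS replicate 1 was left out, with edgeR adjusted p of 0.182 and 0.0679 without SS replicates 2 and 3, and 0.0853, 0.258 and 0.214 without AS replicates 1, 2 and 3. The size of the change stayed between 1.46 and 1.91 on the log2 scale in those fits. The call also ended with limma-voom (adjusted p = 0.0781), with median-ratio factors (0.0540) and with AS replicates 2 and 3 summed (0.240). It held without AS replicate 1 and SS replicate 3 (edgeR adjusted p = 0.0124), where the closely alike AS replicates 2 and 3 were the only AS libraries.

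C8a had 274, 377 and 415 CPM in SS livers, against 199, 95.2 and 90.4 CPM in AS livers (log2 fold change 1.47, SE 0.353, adjusted p = 0.0986 in edgeR). All SS libraries were above all AS libraries, and AS replicate 1 lay far above the other AS libraries. With AS replicate 1 left out the log2 fold change was 1.93, and with SS replicate 3 left out as well it was 1.81 and passed the test (edgeR adjusted p = 0.00162), where 2.72% of genes were called higher. Both fits had only the closely alike AS replicates 2 and 3 as AS libraries, so their p-values may be too small. With that pair summed C8a was not called. DESeq2 called C8a with all libraries (adjusted p = 0.00510), and it called 3.59% of genes, 2.86% higher and 0.738% lower. C9, whose product polymerises into the pore, had 113, 150.5 and 179 CPM in SS livers, against 100.3, 72.0 and 86.3 CPM in AS livers (log2 fold change 0.78, SE 0.262, adjusted p = 0.254 in edgeR). Its groups did not overlap, but AS replicate 1 and SS replicate 1 were only a little apart.

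The other C8 chains did not share the higher level of C8a. C8b, which lies 11.1 kb from C8a and is read towards it, had 118, 145 and 119.9 CPM in SS livers, against 276, 123 and 106 CPM in AS livers (log2 fold change -0.40, SE 0.357, adjusted p = 0.662 in edgeR). Apart from AS replicate 1 its libraries lay between 106 and 145 CPM, with no separation of the genotypes. C8g had 575, 461 and 207 CPM in SS livers, against 848, 727 and 741 CPM in AS livers (log2 fold change -0.90, SE 0.358, adjusted p = 0.336 in edgeR). Its SS libraries all lay below AS, and SS replicate 3 was lowest by far. The C8g transcript has 1150 bases, in the length class that was low in that library. The part of length in the C8g value was not tested. Without SS replicate 3 the log2 fold change of C8g was -0.59.

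Taking C8a over C8b within each library removes library scaling from the comparison. Per length, that ratio was 1.43, 1.61 and 2.15 in SS livers and 0.447, 0.479 and 0.528 in AS livers. The beta chain transcript was thus the more abundant of the pair in each AS liver and the alpha chain transcript in each SS liver. On the log2 scale the ratio differed by 1.82 (3.52-fold; pooled SD 0.228, n = 3 each). The pair was chosen after its values were seen, so the difference is given as a description, with no test. The difference was 1.65 to 1.94 when single libraries were left out and 1.59 without AS replicate 1 and SS replicate 3.

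**Figure D4:**
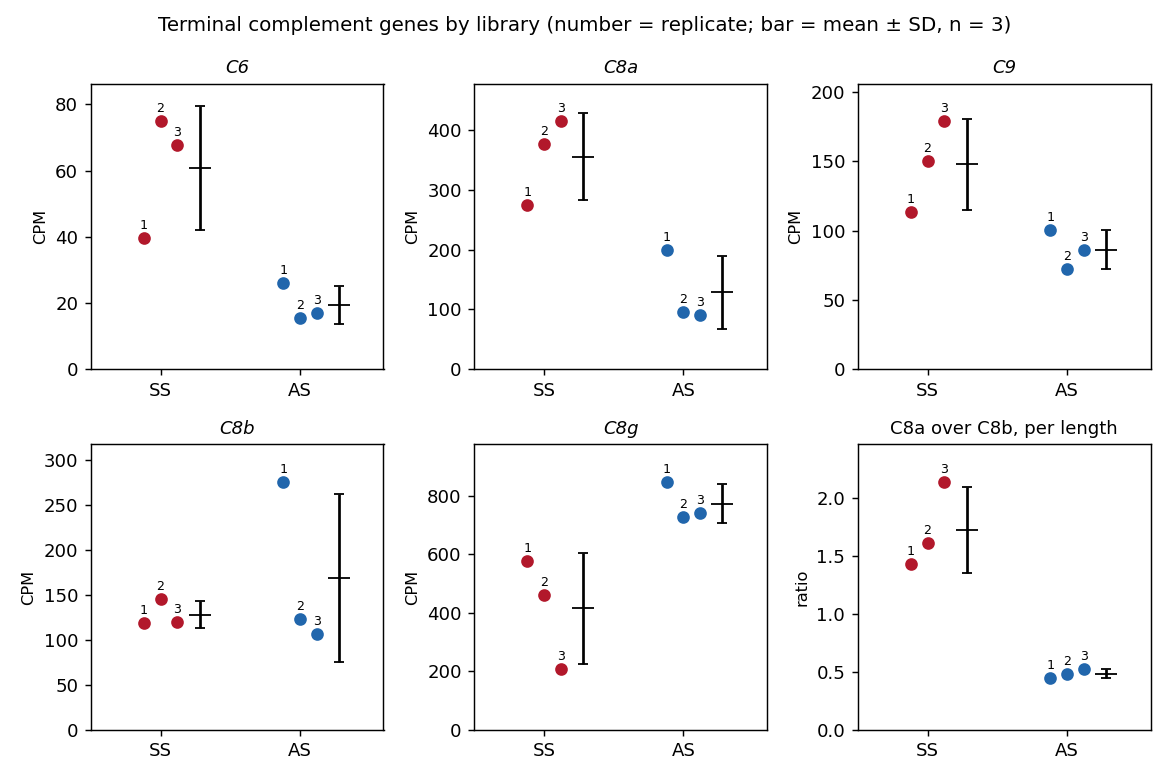
CPM of the terminal complement genes, and the per-length ratio of C8a to C8b (last panel), in each library (numbered by replicate, SS in red left of AS in blue) with the mean ± SD of 3. C6, C8a and C9 have every SS point above every AS point, C8g the reverse, and the C8a to C8b ratio lies between 1.43 and 2.15 in SS and between 0.447 and 0.528 in AS.

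C1q, which opens the classical pathway, is a complex of 3 chains encoded by the neighbouring genes C1qa, C1qb and C1qc (from 136880129 on chromosome 4). C1qa had 129, 239 and 97.3 CPM in SS livers, against 149, 104 and 97.4 CPM in AS livers (log2 fold change 0.41, SE 0.348, adjusted p = 0.639 in edgeR). C1qb had 89.9, 241 and 105 CPM in SS livers, against 119, 75.9 and 72.9 CPM in AS livers (log2 fold change 0.70, SE 0.385, adjusted p = 0.477 in edgeR), and C1qc followed with a log2 fold change of 0.51. SS replicate 2 alone stood out in each chain and the groups overlapped. Without SS replicate 2 the log2 fold change of C1qa was -0.061, that of C1qb 0.11 and that of C1qc 0.033. The 12 genes listed as markers of Kupffer cells, the resident liver macrophages, summed to 921, 2465 and 1600.4 CPM in SS livers and 1016, 829 and 783 CPM in AS livers. The sum was thus also highest in SS replicate 2. Log2 fold changes of the 12 ran from -0.65 for Cd163 to 1.34 for Cd68, with 11 above 0 and 1 below. The sum does not tell resident from recruited macrophages. Summed C1q reads over summed marker reads were 0.333, 0.273 and 0.184 in SS livers and 0.369, 0.321 and 0.305 in AS livers. More macrophages and more C1q RNA per macrophage cannot be told apart in whole liver, nor can fewer cells and less RNA per cell for any other member.

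No protease or substrate after C1q passed the test. C1ra, a protease of the C1 complex, had every SS library below AS (log2 fold change -0.46, SE 0.257), C2 gave 0.027, and C4b gave 0.18 with reads that its near copy C4a may share. In the lectin pathway, Mbl2, a mannose-binding lectin, had 396, 518 and 289.9 CPM in SS livers, against 869, 676 and 657 CPM in AS livers (log2 fold change -0.87, SE 0.292, adjusted p = 0.252 in edgeR, 95% interval -1.52 to -0.22). Its highest SS library lay below its lowest AS library. Mbl1, the other such lectin, gave -0.59 with overlapping groups, AS replicate 1 being far above the rest. Masp2, the protease that cuts C4 and C2, kept SS below AS (-0.50).

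Masp1, the protease that activates Masp2, was singled out after its values were seen, as was F5, because 1 library set its direction. It had 5.67, 8.48 and 99.5 CPM in SS livers, against 9.33, 18.2 and 19.6 CPM in AS livers. SS replicates 1 and 2 lay below all AS libraries, and SS replicate 3 lay above all of them. The log2 fold change was 1.27 (SE 0.947, edgeR adjusted p = 0.596) with all libraries and -1.14 without SS replicate 3. With AS replicate 1 also left out it was -1.40 and was called lower (edgeR adjusted p = 0.0354), with the closely alike AS replicates 2 and 3 as the only AS libraries. The principal Masp1 transcript is 5345 bases long, in the class that was raised in SS replicate 3, and the sum of the 12 stellate cell and fibroblast markers was 544, 656 and 829 CPM in SS livers and 503, 445 and 432 CPM in AS livers, highest in the same library. The part of either in the Masp1 value was not tested.

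**Figure D5:**
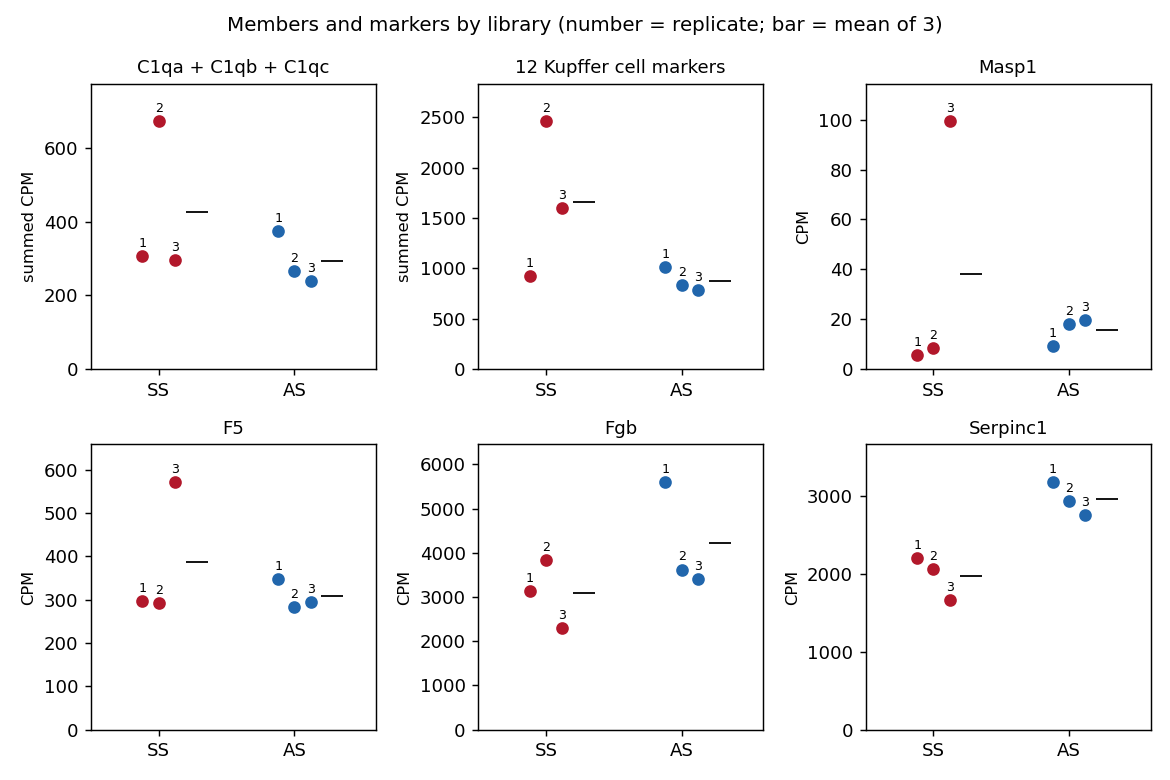
Summed CPM of the 3 C1q genes and of the 12 Kupffer cell markers, and CPM of Masp1, F5, Fgb and Serpinc1, in each library (numbered by replicate, SS in red left of AS in blue, bar at the mean of 3). SS replicate 2 is highest for C1q and the Kupffer cell markers, SS replicate 3 for Masp1 and F5, AS replicate 1 for Fgb, and for Serpinc1 all SS points lie below all AS points.

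C3, on which all pathways converge, had the highest mean CPM of the members in both groups. Per length it averaged 1798 ± 297 CPM per kilobase of transcript in SS and 1862 ± 157 CPM per kilobase in AS (SD, n = 3 each), beside 1362 ± 424 in SS and 1877 ± 248 in AS for Kng1. C3 had 7649, 9355 and 10696 CPM in SS livers, against 10420.0, 9456 and 8817 CPM in AS livers (log2 fold change -0.051, SE 0.265, adjusted p = 0.952 in edgeR, 95% interval -0.64 to 0.54). The groups overlapped fully, with SS replicate 1 lowest and SS replicate 3 highest. Cfb, the factor B gene of the alternative pathway, had 1232, 1221 and 964 CPM in SS livers, against 1530.3, 1232 and 1128 CPM in AS livers (log2 fold change -0.19, SE 0.264, adjusted p = 0.787 in edgeR), also with overlapping groups. Cfd, the gene of the protease factor D, was close to undetected, with 9, 0 and 0 reads in SS livers and 0, 0 and 1 in AS livers. A count of 0 allows up to 3 reads, so at this depth its expression in the 4 libraries without a read was not detectable. Of the 9 fat cell markers, 6 were too low to test: Plin1 and Lep had 0 reads in all libraries, and Adipoq, Retn, Adig and Cidea had at most 4 reads in any. The 3 tested markers, Lpl, Fabp4 and Cidec, which other cells also express, had log2 fold changes of 2.49 (called higher, adjusted p = 0.0462 in edgeR), 0.62 and 1.34. The 9 markers summed to 329, 675 and 235 CPM in SS livers and 129, 72.6 and 84.4 CPM in AS livers. Most of each sum was Lpl, at 294, 617 and 183 CPM in SS livers and 101, 40.1 and 54.2 CPM in AS livers. The sum thus mainly follows 1 gene that other cells also express. The part of fat cells in the Cfd reads was not tested.

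Inhibitors of complement did not pass the test. C4bp, the C4b-binding protein gene, had 541, 611 and 650.4 CPM in SS livers, against 538, 443 and 459 CPM in AS livers (log2 fold change 0.32, SE 0.246, adjusted p = 0.599 in edgeR), with SS above AS in all libraries by a narrow margin. Cfi, the protease that cuts C3b and C4b, gave -0.19, and Serping1, the C1 inhibitor gene, gave -0.12, both with overlapping groups. Summed over the complement genes, transcripts made up 14532, 17219 and 16901 CPM in SS livers and 19115, 16492 and 15616 CPM in AS livers, and C3 was the larger part of each sum.

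Other genes of the same systems were taken from lists chosen for their function. Of 29 further coagulation and fibrinolysis genes, 25 were tested, with a median log2 fold change of 0.49 and none called lower. Of 32 further complement genes, 27 were tested, 1 was called higher and none lower (unadjusted 5 higher and 1 lower; 3 higher and 0 lower with DESeq2), with a median of 0.027. Itgax, a subunit of complement receptor 4 and a marker of myeloid cells, rose to 9.50, 6.89 and 6.65 CPM in SS livers, against 1.5, 1.77 and 1.96 CPM in AS livers (log2 fold change 2.12, SE 0.423, adjusted p = 0.0479 in edgeR), and its call ended whichever library was left out. Hc, the mouse C5 gene and so the first part of the terminal complex, had 639.9, 664 and 746 CPM in SS livers, against 622, 587 and 534 CPM in AS livers (log2 fold change 0.23, SE 0.243, adjusted p = 0.709 in edgeR), and C7 had at most 1.57 CPM.

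Marker lists gave the setting of these values. Of 22 acute phase genes 4 were called higher and none lower, with log2 fold changes of 4.01 for Saa1, 4.0 for Saa2, 3.63 for Lcn2 and 3.03 for Orm2, and with a list median of 0.17. None of 13 tested hepatocyte markers was called (median -0.31), nor of 12 Kupffer cell markers (median 0.93), 11 sinusoidal endothelial markers (0.049) or 4 tested platelet markers (1.21), with the lowest p in Ahsg, Cd68, Lyve1 and Pf4. In unadjusted tests 0, 7, 1 and 2 of these were higher and none was lower. DESeq2 called 0, 0, 1 and 1 of them higher and none lower. Markers called higher by edgeR numbered 6 of 12 for monocytes and recruited macrophages (Gpnmb had the lowest p) and 2 of 12 for stellate cells and fibroblasts (Col1a2 and Lum). They numbered 6 of 9 for erythroid cells (Alas2 had the lowest p) and 1 of 3 tested for fat cells (Lpl), and none was called lower. In the same order DESeq2 called 7, 3, 7 and 1 higher and limma-voom 0, 2, 3 and 0, with none lower. Over all genes tested edgeR called 0.911% higher, and limma-voom called 30 genes higher. The sum of the 12 monocyte and recruited macrophage markers was 374, 327 and 322 CPM in SS livers and 136, 132 and 130.4 CPM in AS livers. Much of it was Spp1, at 219, 102 and 131 CPM in SS livers and 69.8, 95.7 and 85.2 CPM in AS livers, so the sum weighs the markers unequally.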

How the data were processed

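Each library came as a table of read counts that the authors deposited without normalization, listed by gene symbol. The submitters' processing notes name HISAT2, HTSeq and the mm10 build, while their versions, the annotation and the strand setting are not given in the sources used here, so overlapping antisense genes cannot be told apart, nor can near copies (C4b and C4a, Kng1 and Kng2, C1ra and C1rb). The rows of each table that name no gene (no feature, ambiguous, low quality, not aligned, not unique) held 66.6% to 78.5% of its records, with a 95% Wilson interval at most 0.0402 percentage points wide, and were left out. SS replicate 1 stood apart at 78.5%, where no other library passed 69.7%. Its no-feature records made up 53.9%, against 40.7% to 43.8% in the other libraries. The effect of this on the comparison was not tested. Intervals and limits on 0 counts (3 reads) cover counting error only.

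Members and lists were chosen with earlier results of these data known. The 12622 genes kept by edgeR's filter (minimum count 10, minimum total 15) held 99.8% of gene reads. The genotypes were compared with the robust quasi-likelihood test of edgeR 4.0.16 (R 4.3.3) with TMM factors, all 6 libraries and no covariate, and genes were called at a Benjamini-Hochberg adjusted p under 0.05 over all genes. In 5 simulated data sets of 12622 genes with 200 changed, the SS against AS test found 8.8% of 2-fold and 70.6% of 4-fold changes with a mean of 8 false calls, so changes of 2-fold would mostly be missed at this depth and replication. DESeq2 1.42.0, limma 3.58.1 (voom), other scalings and filters, a replicate block, leaving out libraries and summing AS replicates 2 and 3 were tried as alternatives. The C8a to C8b ratio was chosen after the values were seen.

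Every library's value was given for members called or with an unadjusted p under 0.05, for the member with the lowest p in each of 10 roles, and for Fgb, F2, Serpinc1, C3, C9, F3, C1qa and Cfd. From each list up to 3 called genes with the lowest p were named, otherwise the gene with the lowest p. Beyond this rule, all 4 called acute phase genes and some further single markers were named. Pros1, C4bp, C8b, Hc and C7 were added for their place in the pathways. A gene that the rule would name from the list of further coagulation genes is not reported here. Coordinates and transcript lengths come from GENCODE M21 (GRCm38, the same assembly as mm10).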

Additional observations from a re-analysis of the deposited data

How the results depend on the processing

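Of 122 genes called in all, counts were 217 with no filter on low counts, 453 with DESeq2, 31 with limma-voom, 662 without AS replicate 1 and SS replicate 3, 31 with AS replicates 2 and 3 summed, and 22 to 99 with single libraries left out. Coagulation genes called numbered 1 without AS replicate 1 and SS replicate 3 (Hrg) and 0 under all other settings run. Complement genes called numbered 0 with median-ratio factors, limma-voom or AS replicates 2 and 3 summed, 2 with library totals only, no filter or DESeq2, 3 without AS replicate 1 and SS replicate 3, and 0 to 1 with single libraries left out. The coagulation median was -0.18 with library totals only and -0.20 without AS replicate 1 and SS replicate 3, and the complement median was 0.27 with library totals only. The labels do not say whether replicate numbers pair the libraries. Deviations of same-numbered libraries correlated at 0.056, -0.14 and 0.22, and those of differently numbered libraries at -0.25 to 0.27. With 3 libraries a group these values cannot show whether the numbers mark a pairing. With the number as a replicate block 460 genes and 2 complement genes were called. Signs turned only in members that the main test did not call. With single libraries left out, log2 fold changes ran from -0.079 to 0.48 for F5, -0.064 to 0.49 for F8, -0.15 to 0.20 for F9, -0.14 to 0.13 for F11, -0.49 to 0.026 for Proz, -0.41 to 0.020 for Klkb1, -0.061 to 0.65 for C1qa, -0.11 to 0.12 for C2, -0.18 to 0.065 for C3, -0.65 to 0.15 for C8b and -1.14 to 1.77 for Masp1. Without AS replicate 1 and SS replicate 3 they were -0.18 for F8, -0.18 for F9, 0.011 for F11, 0.19 for Klkb1, 0.12 for Serpinf2, 0.12 for Serping1, -0.10 for C2, 0.20 for C8b, 0.053 for Cfb, -1.40 for Masp1 and 0.19 for Mbl1. With library totals only they were 0.29 for F11, 0.16 for Proz, 0.073 for Klkb1, 0.14 for Serping1, 0.24 for C3, 0.091 for Cfb and 0.10 for Cfi. F11 was 0.0019 with upper-quartile factors, and C2 was -0.014 with median-ratio factors and with DESeq2. The cause was not tested.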

Other observations

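F7, F10 and Proz lie in a row on chromosome 8, with gaps of 1.5 kb and 4.24 kb, and their log2 fold changes were -0.47, -0.56 and -0.14; SS libraries lay below AS for F7 and F10 and overlapped AS for Proz, and the difference between these genes was not tested. C2 and Cfb are 0.085 kb apart on chromosome 17, and the groups overlapped in both. C1qa over C1qc, per length, ran from 1.21 to 1.71 in SS livers and 1.41 to 1.64 in AS livers.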
